A study of Mus musculus with 10 samples.

Results

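The CC chemokines of tumor macrophages were described across the cells of SW1 melanomas: the ligands Ccl2, Ccl7, Ccl12, Ccl8, Ccl3, Ccl4, Ccl6 and Ccl9, the receptor Ccr2 and the receptor-like Ccrl2, which are 10 of the 32285 genes in each of 5 single-cell expression matrices. The genes were chosen by name, with earlier results of these data known. Their unique molecular identifiers (UMIs, which count single captured transcripts) were summed per library over 3 classes of barcodes. The sums were given as counts per 1000000 UMIs (CPM). Macrophages were barcodes with at least 10 UMIs of C1qa, C1qb and C1qc together, tumor cells had at least 1 UMI of Sox10 and 0 of Ptprc, and the other Ptprc-positive barcodes made up the third class, Ptprc being the gene of the sorted surface protein CD45.

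CC chemokines are small secreted proteins that draw leukocytes along a gradient through receptors coupled to G proteins. Ccl2, Ccl7 and Ccl12 act on Ccr2 and call monocytes out of the bone marrow into inflamed or tumor tissue, where these become macrophages. Ccl6 and Ccl9 act on Ccr1 and mouse Ccl8 on Ccr8, Ccl3 and Ccl4 are inflammatory attractants of leukocytes, and Ccrl2 binds the attractant chemerin without signalling itself.

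The 5 libraries came from female C3H/HeJ mice, 4 to 6 weeks old, a strain with a Tlr4 mutation that blunts the answer to lipopolysaccharide. All carried subcutaneous SW1 melanomas grown for 10 days per the labels, from which the study's methods differ on this point, and the tumors were sorted for CD45+ cells. A pretreatment library came from 3 mice at day 0, and the others from mice given plain or L-fucose (L-fuc) drinking water for 7 or 21 days. The labels give the L-fuc dose as 100 mM in one place and as 100 nM in another, and 5 or 6 mice per arm, so the dose and the number of pooled mice are uncertain. Each condition is a single library of pooled tumors, so differences between conditions have no replicate check and carry no p-value, and every 95% interval covers counting error only.

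The libraries held 1428 to 20741 barcodes and 14439185 to 119047810 UMIs, and 1182 to 17897 barcodes passed at least 500 genes and at most 10% mitochondrial UMIs. Macrophages numbered 456 at day 0, 1772 in control and 2071 in L-fuc at day 7, and 788 in control and 411 in L-fuc at day 21, with median depths of 5737 to 7887.5 UMIs. Of macrophage markers outside the rule, Csf1r stood at 172 to 315 CPM in macrophages, 15.2 to 51.2 in the other Ptprc-positive barcodes and 0.376 to 2.89 in tumor cells. Adgre1 stood at 115 to 233, 4.59 to 11.7 and 0 to 2.16, and Apoe at 2945 to 7375, 69.3 to 404 and 146 to 371, in the same order of classes. The control day 7 library stood apart: despite the CD45 sort 8822 of its 17897 kept barcodes were tumor cells, and Sox10 was found in 31.1% of its macrophage barcodes and 44.6% of its other Ptprc-positive barcodes, against 2.19 to 13.9% of macrophage barcodes elsewhere. At least 2 UMIs of the T cell genes Cd3d, Cd3e and Cd3g together were found in 81 of 456 macrophages at day 0. At day 7 they were found in 355 of 1772 in control and 472 of 2071 in L-fuc. At day 21 they were found in 11 of 788 in control and 11 of 411 in L-fuc. Between 64 and 577 barcodes per library also occurred in another library, most of them (433) between the day 7 libraries.

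All 8 ligands lie on mouse chromosome 11 in 2 stretches (GRCm38, GENCODE vM21). The stretch chr11:82035571-82116799 holds Ccl2, Ccl7, Ccl12 and Ccl8 over 81.2 kb, and chr11:83572919-83664683 holds Ccl9, Ccl6, Ccl3 and Ccl4 over 91.8 kb. Ccrl2 (chr9:111054486-111057519, minus strand) and Ccr2 (chr9:124101950-124113557, plus strand) lie on chromosome 9. RefSeq promoter windows, 250 bases before to 50 bases after a transcription start, were at hand for 7 of the 10 genes.

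The windows of 4 genes are shown for the gates within macrophages described further on: Ccrl2 and Ccl3 are high where Il1a, Cxcl1 and Tnf are found, as is Ccl4, for which no window was at hand, and Ccl8 and Ccl9 are high where Mrc1 and Folr2 are found. They are written 5′ to 3′ on the gene's own strand, and capitals mark matches on either strand to the NF-kB consensus, the AP-1 site TGANTCA and the PU.1 core GAGGAA, searched in the RefSeq windows of GRCm38.p6. The windows are chr9:111057469-111057768 (minus strand) for Ccrl2, chr11:83649329-83649628 (minus strand) for Ccl3, chr11:82114935-82115234 (plus strand) for Ccl8 and chr11:83578587-83578886 (minus strand) for Ccl9.
Ccrl2: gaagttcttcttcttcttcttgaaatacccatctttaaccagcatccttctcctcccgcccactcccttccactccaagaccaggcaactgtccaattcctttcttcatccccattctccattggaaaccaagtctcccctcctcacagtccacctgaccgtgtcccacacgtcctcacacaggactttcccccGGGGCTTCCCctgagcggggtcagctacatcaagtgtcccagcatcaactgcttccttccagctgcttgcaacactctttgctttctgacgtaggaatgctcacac
Ccl3: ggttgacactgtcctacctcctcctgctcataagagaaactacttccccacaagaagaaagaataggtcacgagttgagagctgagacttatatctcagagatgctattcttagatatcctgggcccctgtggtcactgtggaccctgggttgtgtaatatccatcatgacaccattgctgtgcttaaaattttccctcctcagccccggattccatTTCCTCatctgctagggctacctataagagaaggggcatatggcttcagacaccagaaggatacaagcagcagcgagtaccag
Ccl8: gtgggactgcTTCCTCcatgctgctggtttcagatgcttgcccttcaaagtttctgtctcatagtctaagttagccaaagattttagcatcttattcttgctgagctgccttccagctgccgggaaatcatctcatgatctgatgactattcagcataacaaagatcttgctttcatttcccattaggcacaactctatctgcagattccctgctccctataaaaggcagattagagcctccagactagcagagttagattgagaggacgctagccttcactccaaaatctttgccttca
Ccl9: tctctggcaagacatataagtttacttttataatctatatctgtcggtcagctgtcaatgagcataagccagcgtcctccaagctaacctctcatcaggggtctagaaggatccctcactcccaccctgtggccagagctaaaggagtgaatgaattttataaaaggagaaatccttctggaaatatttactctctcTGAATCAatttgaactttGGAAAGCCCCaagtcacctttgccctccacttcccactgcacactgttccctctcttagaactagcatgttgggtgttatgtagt

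In the windows of these genes the NF-kB consensus was matched at bases -56 to -47 from the start site of the Ccrl2 window shown. It was also matched at -35 to -26 in Ccl9, which held an AP-1 match at -53 to -47 as well. The other Ccrl2 windows, chr9:111057221-111057520 and chr9:111057195-111057494, held 0 matches of the 3 motifs. The PU.1 core was matched in Ccl3, Ccl8 and Ccl12, and no motif of the 3 was matched in the windows of Ccl6 and Ccr2. Of all 32851 windows 8.46% held the NF-kB match, 7.81% the AP-1 match and 28.3% the PU.1 match. Such shares count windows and not genes, and 2, 1 and 3 of 7 genes are few to set beside them. These are matches of letters and no evidence of binding.

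Within macrophages, the members together took 1.02% of all UMIs at day 0, 0.480% in control and 0.515% in L-fuc at day 7, and 0.903% in control and 0.725% in L-fuc at day 21. Ccl4 and Ccl8 made up 61.2 to 64.1% of that sum in every library. Chromium libraries read each transcript from an end, so UMI levels of different genes are set side by side without division by length, as captured transcripts.

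**Figure D1:**
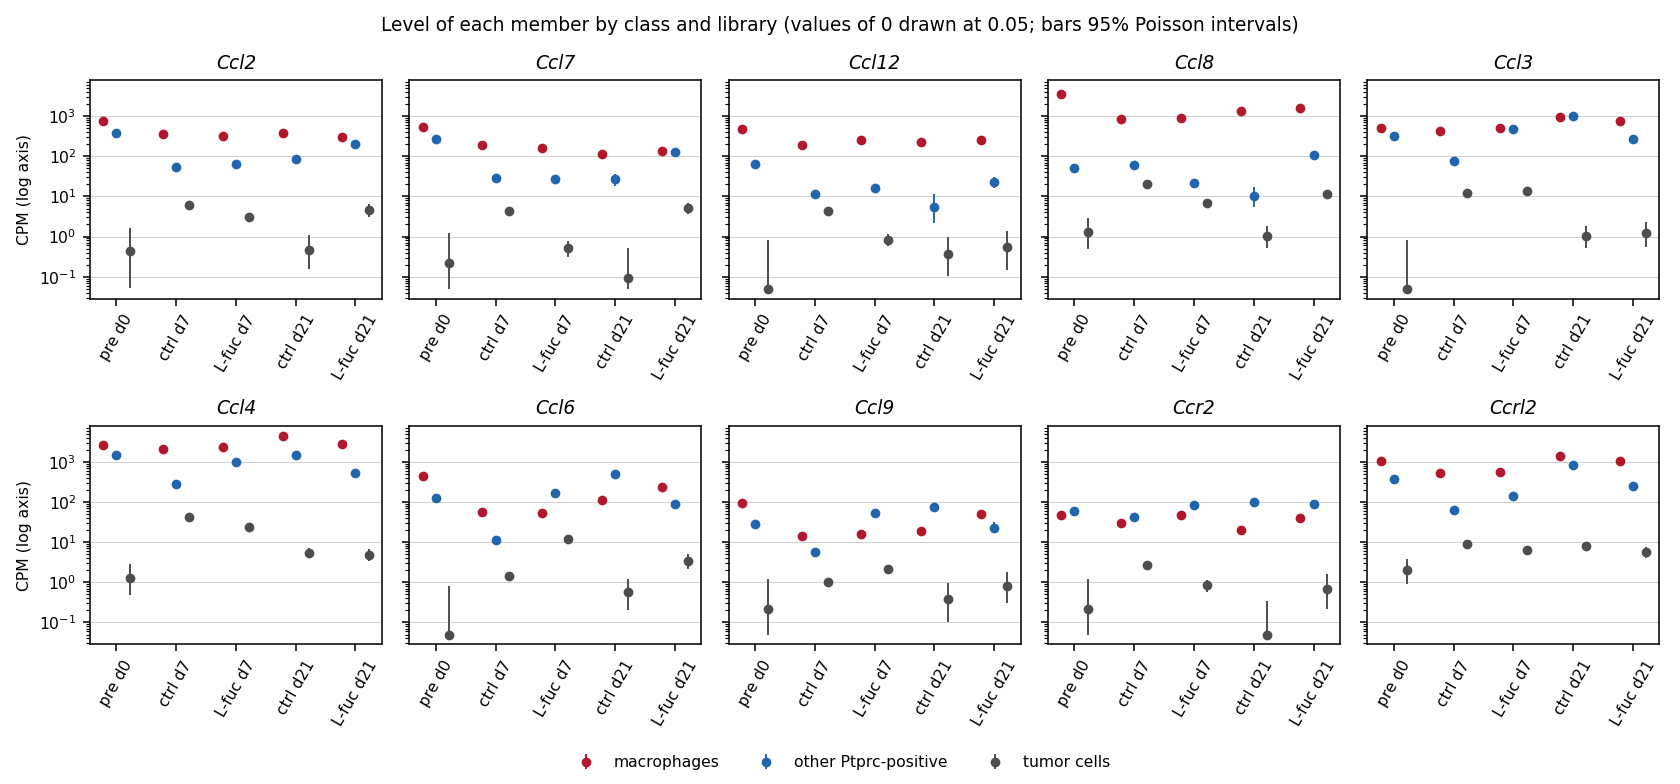
Level of each member (CPM, log axis) by library in macrophages, other Ptprc-positive barcodes and tumor cells, with 95% Poisson intervals and values of 0 drawn at 0.05. Macrophages lie above tumor cells for every member in every library. Ccr2 is higher in the other Ptprc-positive barcodes than in macrophages in all 5 libraries (98.2 against 19.7 in control day 21). Ccl6, Ccl9 and Ccl3 are higher there in some libraries.

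The Ccr2 ligands were highest in the pretreatment macrophages. Ccl2, the classical monocyte attractant, stood at 739 CPM at day 0, 354 in control and 318 in L-fuc at day 7, and 378 in control and 296 in L-fuc at day 21. Ccl7 followed at 537, 192, 157, 116 and 136 in the same order of libraries, and Ccl12 at 486, 196, 256, 233 and 262. For all 3 ligands the later libraries lay within a narrower range, all below day 0.

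Ccl8, a ligand known from allergic skin, stood at 3634 CPM at day 0, 834 and 896 in control and L-fuc at day 7, and 1347 and 1602 at day 21. By these full-depth sums it ranked first among the members at day 0, and Ccl4 ranked first in the other 4 libraries. Ccl4 stood at 2644 at day 0, 2157 and 2344 at day 7, and 4441 in control and 2833 in L-fuc at day 21. Its neighbour Ccl3 stood at 504, 428, 502, 980 and 740, and Ccrl2, the chemerin-binding receptor, at 1079, 538, 560, 1377 and 1052 in that order. For these 3 genes control day 21 was the highest library.

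The Ccr1 ligand Ccl9 was the scarcest ligand in all 5 libraries. Ccl6, a further Ccr1 ligand, stood at 445 CPM at day 0, 56.3 and 53.8 in control and L-fuc at day 7, and 116 and 237 at day 21, and Ccl9 at 96.0, 14.6, 15.9, 19.5 and 49.7. Ccr2 itself, the receptor that marks monocytes fresh from the blood, was low in macrophages in all 5 libraries, at 47.0, 30.1, 47.9, 19.7 and 40.8. For Ccl6 and Ccl9 both day 7 libraries lay lowest and day 0 highest. With every barcode thinned to 1000 UMIs, so that shallow and deep barcodes weigh the same, Ccl6 was higher in L-fuc day 21 than at day 0, at 757 against 339 CPM, and Ccl9 stood at 63.7 against 62.1.

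Because a class level cannot tell fewer macrophages with a transcript from fewer transcripts per macrophage, every barcode was thinned to 1000 UMIs and the share with at least 1 UMI counted. Ccl4 was found in 35.5% of thinned macrophages at day 0, 38.8 and 35.1% in control and L-fuc at day 7, and 44.6 and 48.5% at day 21, and without thinning in 54.6 to 67.2%. Thinned tumor cells, which should lack it, showed 0, 4.63, 2.80, 1.28 and 2.08%. Ccl8 was found in 36.8, 28.9, 23.5, 19.9 and 36.8% of thinned macrophages, and its level in these thinned barcodes was 2831 CPM at day 0 and 2848 in L-fuc day 21, against 3634 and 1602 at full depth. In thinned L-fuc day 21 macrophages Ccl8 had 1162 UMIs and Ccl4 970, so there Ccl8 and not Ccl4 ranked first. Ccl6 was found in 54 of 451 thinned macrophages at day 0, in 4.58, 4.93 and 8.15% of those in control day 7, L-fuc day 7 and control day 21, and in 23.8% in L-fuc day 21.

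Few macrophages held most of these transcripts. In thinned libraries the highest 10% of macrophages held 57.0 to 88.9% of the Ccl8 UMIs and 61.0 to 74.3% of the Ccl4 UMIs, and single barcodes reached 100 Ccl8 and 97 Ccl4 UMIs of their 1000. For Ccl9 and Ccr2 that top 10% held 100% in every library, since fewer than 10% of thinned macrophages had a UMI.

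Tumor cells were compared with macrophages by edgeR's quasi-likelihood test on the class sums, with the library as a block and Benjamini-Hochberg adjustment over 13079 genes. All 10 members were higher in macrophages, where 38.9% of all genes tested were called higher and 30.4% lower. The log2 fold changes ran from 5.25 ± 0.82 (SE, 5 libraries) for Ccl9 to 8.62 ± 1.03 for Ccl8, with edgeR adjusted p from 1.22e-05 for Ccrl2 to 0.00114 for Ccl6. The highest tumor-cell level of any member in any library was 43.7 CPM, for Ccl4 in control day 7. The members were chosen as macrophage chemokines with earlier results of these data known. Calls in macrophages, here and against the other Ptprc-positive barcodes below, are therefore a description and no independent support. The classes share mice and capture wells, and the library was a block. The p-values therefore set a class difference against its variation over the 5 pools and not over separate mice.

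To gauge free RNA, each member was counted per UMI of 5 reference genes (Lyz2, Tyrobp, Ctss, Fcer1g and Cd74, the last working with MHC class II). The value in tumor cells was divided by that in macrophages, so that free RNA of macrophages alone would give about 1. Together the reference genes stood at 2605 to 4333 CPM in tumor cells and 21239 to 40993 in macrophages. Reference transcripts made by tumor cells themselves would lower the ratio, and whether there were any was not tested. The median ratio over members was 0.00588 at day 0, 0.194 in control day 7, 0.0678 in L-fuc day 7, 0.00957 in control day 21 and 0.0900 in L-fuc day 21. The highest ratio was that of Ccl6 in L-fuc day 7, at 1.42. There 11 of 2876 tumor-class barcodes that passed a mast-cell and basophil gate (at least 3 UMIs of Cpa3, Hdc, Ms4a2 and Mcpt8 together) held 92.4% of the class's 502 Ccl6 UMIs and 90.0% of its 90 Ccl9 UMIs.

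Against the other Ptprc-positive barcodes, 3 members were called higher in macrophages, where 18.7% of all genes were called higher, and 0 lower, where 12.6% were. Ccl8 led with a log2 fold change of 5.82 ± 0.91 (edgeR adjusted p = 0.00139), followed by Ccl12 at 4.16 ± 0.76 (0.00319) and Ccrl2 at 1.97 ± 0.57 (0.0254). Ccl2 and Ccl7 stood at 1.92 ± 0.71 and 1.96 ± 0.75 and did not pass (edgeR adjusted p = 0.0603 and 0.0681), nor did Ccl4 at 1.89 ± 0.83 (0.106). Ccl3 at 0.99 ± 0.92, Ccl6 at 0.78 ± 1.05, Ccl9 at 0.40 ± 0.72 and Ccr2 at -0.77 ± 0.56 did not pass either. The Ccrl2 call was lost on leaving out L-fuc day 7, control day 21 or L-fuc day 21 (edgeR adjusted p = 0.0953, 0.0512 and 0.0855) and without barcodes holding Sox10 or Cd3 (0.118), and the calls of Ccl8 and Ccl12 held in each of these.

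The other Ptprc-positive barcodes were then split by marker gates. Barcodes of the monocyte gate (at least 3 UMIs of Plac8 and Ly6c2, with 28, 62 and 69 barcodes at day 0, control day 7 and L-fuc day 7) held Ccl2 at 767 to 3511 CPM, Ccl7 at 151 to 2362 and Ccr2 at 120 to 263. Their Ccl2 and Ccr2 were above those of macrophages in the same 3 libraries, and their Ccl8, at a median of 9.40, was far below. Of the gates with at least 10 barcodes the dendritic cell gate (Flt3, Clec9a, Xcr1 and Cd209a) held the highest Ccr2, 488 in control day 7 (13 barcodes) and 840 in control day 21 (15 barcodes), and natural killer cells, gated by Gzma, Klrb1c and Ncr1, held 151 to 301.

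In the mast-cell and basophil gate of L-fuc day 7 (31 barcodes) Ccl3 stood at 9476, Ccl4 at 16649, Ccl6 at 10962 and Ccl9 at 1969 CPM, each above the macrophages of every library. The neutrophil gate of that library (22 barcodes) held Ccrl2 at 5128, Ccl4 at 4398 and Ccl3 at 3752, and its Ccl9 was listed at 0. T cells held Ccl4 at 588 to 2255, and 2.89 was their median Ccl12. Barcodes that passed several gates were set apart and do not enter these levels.

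**Figure D2:**
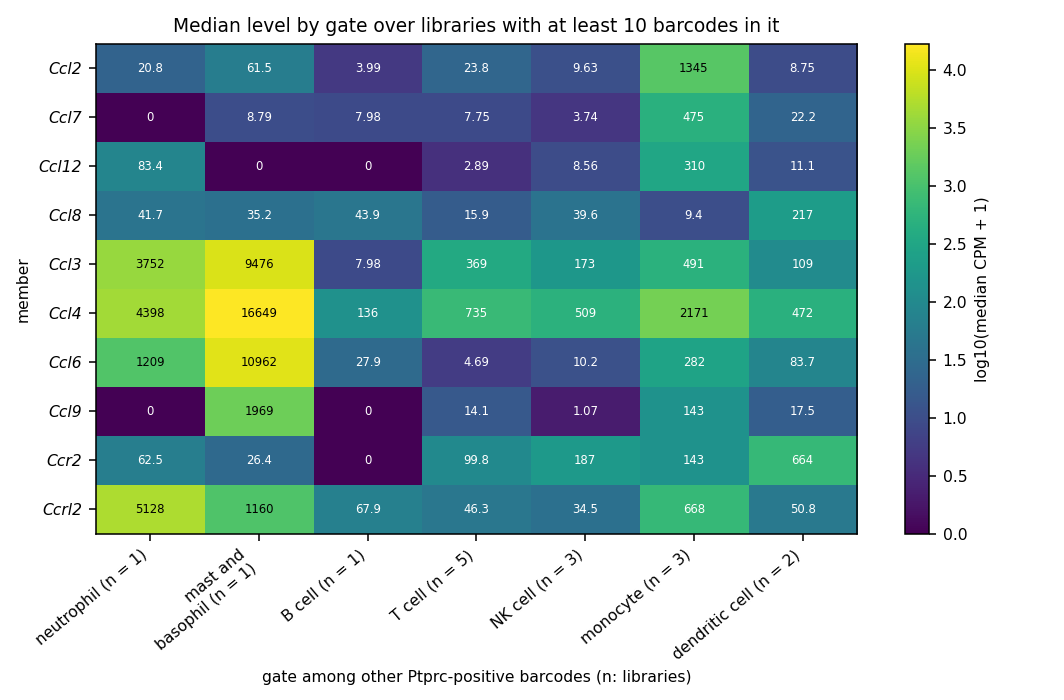
Median level (CPM, printed in each cell and coloured as log10 of the level plus 1) of each member in marker gates among other Ptprc-positive barcodes, over the libraries with at least 10 barcodes in the gate, whose number is given below each column. Among the gates drawn, mast cells and basophils are highest for Ccl3, Ccl4, Ccl6 and Ccl9, monocytes for Ccl2, Ccl7 and Ccl12, and dendritic cells for Ccr2 and Ccl8. The dendritic cell gate held only 13 and 15 barcodes, with Ccl8 at 123 to 311 CPM. A gate of mature dendritic cells (Fscn1 and Ccr7, 163 and 563 barcodes in 2 libraries) is not drawn. It held Ccl4 at 50.3 to 53.4 CPM and Ccr2 at 1.85 to 4.71. Barcodes that passed several gates or none are not drawn either. Those that passed none, 32 to 1860 per library, held Ccl8 at 20.5 to 983, Ccl4 at 228 to 5103 and Ccrl2 at 64.6 to 1772.

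Macrophages were split by gates on genes other than the members. The 59, 60, 42, 35 and 56 macrophages (day 0, control and L-fuc day 7, control and L-fuc day 21) with at least 3 UMIs of Mrc1, Folr2, Cd163 and Lyve1, genes of resident-type macrophages, held Ccl8 at 11888, 3661, 3847, 10253 and 3750 CPM, against 1135, 694, 755, 577 and 858 in the rest. The gate took 2.03 to 13.6% of macrophages and held 19.6 to 76.0% of their Ccl8 UMIs. In all 5 libraries it was also higher in Ccl6 (1.80 to 10.8 times), Ccl9 (2.12 to 7.72 times) and Ccl7 (1.72 to 4.29 times). The same held for Ccl12 (1.44 to 4.57 times) and Ccl2 (1.24 to 2.97 times). Gated macrophages were deeper, since a sum of UMIs is more easily reached in a deep barcode, and the part of depth in these ratios was not tested.

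Macrophages with at least 3 UMIs of Il1a, Cxcl1 and Tnf, the inflammatory gate, were higher than the rest in Ccl4 (3.66 to 7.61 times), Ccl3 (3.45 to 6.92 times), Ccrl2 (2.83 to 7.68 times) and Ccl2 (2.76 to 5.37 times), in all 5 libraries. Ccl7 was higher in 4 libraries (3.05 to 7.32 times) and lower in L-fuc day 21, at 0.659 times. Ccl12 (1.16 to 1.80 times) and Ccl9 (1.25 to 2.33 times) were higher by less in this gate in all 5 libraries, with intervals above 1 in 5 and 3. Ccl6 varied in direction (0.597 to 1.68 times). At day 0 the inflammatory gate held 149 of 456 macrophages and 89.4% of their Ccl4 UMIs. Ccl8 went the other way, at 0.536 to 0.845 times the rest, so in every library the gate that was high in Ccl4 was low in Ccl8. Ccr2 was lower as well, at 0.490 to 0.970 times, with intervals below 1 in 3 libraries.

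With Cx3cr1, a receptor of tissue macrophages, Ccl12 was 1.60 to 6.51 times higher in all 5 libraries. Ccl3 (1.35 to 2.21 times), Ccl4 (1.30 to 2.23 times) and Ccrl2 (1.32 to 1.93 times) were also higher in all 5, and the remaining members were not. With at least 3 UMIs of Arg1, which degrades arginine, Ccl12 (0.198 to 0.819 times) and Ccr2 (0.189 to 0.932 times) were lower in all 5 libraries. The Ccr2 intervals lay below 1 in 2 of them. Ccl9 (1.45 to 14.0 times), Ccl6 (1.18 to 11.2 times) and Ccl7 (1.13 to 3.12 times) were higher, each with intervals above 1 in 4 of the 5 libraries. With at least 3 UMIs of the monocyte genes Ly6c2 and Plac8, Ccl12 was again lower in all 5 libraries (0.174 to 0.740 times), and Ccr2 ran from 0.902 to 6.95 times. With at least 2 UMIs of the cell-cycle genes Mki67 and Top2a, Ccl8 was lower in all 5 libraries (0.236 to 0.736 times), and the median ratio of the other members lay between 0.844 for Ccl3 and 1.13 for Ccl9.

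**Figure D3:**
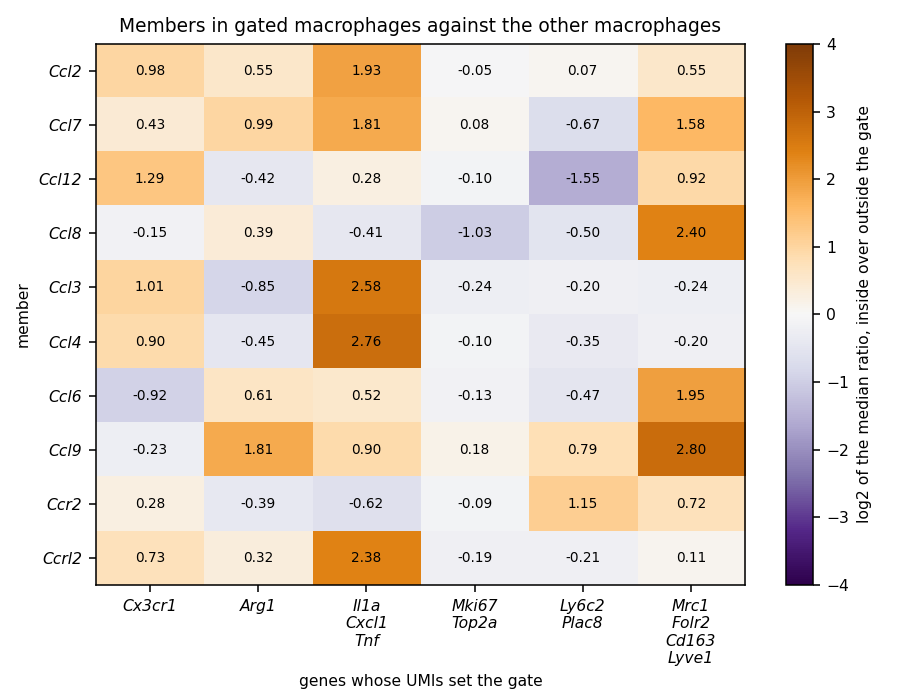
Log2 of the median ratio over 5 libraries of each member's level inside to outside 6 gates within macrophages, printed and coloured. Ccl3, Ccl4 and Ccrl2 are high in the Il1a, Cxcl1 and Tnf gate (median ratios 5.96, 6.79 and 5.21), and Ccl8, Ccl6 and Ccl9 in the Mrc1, Folr2, Cd163 and Lyve1 gate (5.27, 3.87 and 6.95).

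Coexpression was read in 5471 macrophages thinned to 1000 UMIs, as Pearson's r within each library averaged over the 5 libraries. Barcodes of a library share its free RNA and its preparation, so r is given as a description. Of the 45 pairs of members, 9 had a mean r of at least 0.2, 30 lay within 0.1 of 0, and the median was 0.04.

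Ccl3 and Ccl4 formed the closest pair, with a mean r of 0.65 and a range of 0.59 to 0.72 over libraries. Ccrl2 went with both, at 0.47 with Ccl4 and 0.38 with Ccl3, and Ccl2 stood at 0.32 with Ccl4 and 0.25 with Ccl3. Both of Ccl3 and Ccl4 were found in 839 thinned macrophages, a median of 1.96 times the product of their shares. Of 1688 genes compared, Ccl4 was most like Ccl3, Tnf (0.50) and Ppp1r15a (0.47), and Ccrl2 most like Il1b (0.52), Nfkbia (0.49) and Ccl4. A sum of 17 NF-kB response genes had a mean r of 0.58 with Ccrl2, 0.53 with Ccl4, 0.41 with Ccl3 and 0.24 with Ccl2, and a sum of 12 genes induced by tissue dissociation 0.47 with Ccrl2, 0.45 with Ccl4 and 0.37 with Ccl3. Whether these transcripts were made in the tumor or during dissociation cannot be told apart here.

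Ccl2 and Ccl7 formed a further pair at 0.37 (0.22 to 0.60), and Ccl7 and Ccl12 stood at 0.20. Ccl8 was most like the MHC class II genes H2-Aa (0.32) and H2-Ab1 (0.28) and like Cd74 (0.29). It had a mean r of 0.35 (0.18 to 0.61) with the sum of 8 resident-type genes and of -0.04 with the NF-kB sum. Ccl8 and Ccl6 averaged 0.25, from 0.01 in L-fuc day 7 to 0.71 in L-fuc day 21, so the mean of this pair was carried by the latter library. Ccl12 was most like Ccl2 (0.19), C1qc (0.15), a gene of the macrophage rule, and Tmsb4x (0.15). Ccl6 came closest to Ccl8, Crip1 (0.19) and Ahnak (0.14), Ccl9 to Ccl8 (0.12), Cfp and Lyz2 (0.09), and Ccr2 to Tmsb10, Ahnak (0.09) and Malat1 (0.08).

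By the median over pairs, lying in the same stretch of chromosome 11 did not set pairs apart. The 12 pairs within a stretch had a median mean r of 0.07, with 4 at 0.2 or more, and the 16 pairs across stretches a median of 0.07, with 3 at 0.2 or more. Of the ligand pairs, the neighbours Ccl3 and Ccl4 and the neighbours Ccl2 and Ccl7 had the highest mean r. The neighbours Ccl6 and Ccl9 stood at 0.21, and the neighbours Ccl12 and Ccl8, at 0.09, were not among the 9.

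**Figure D4:**
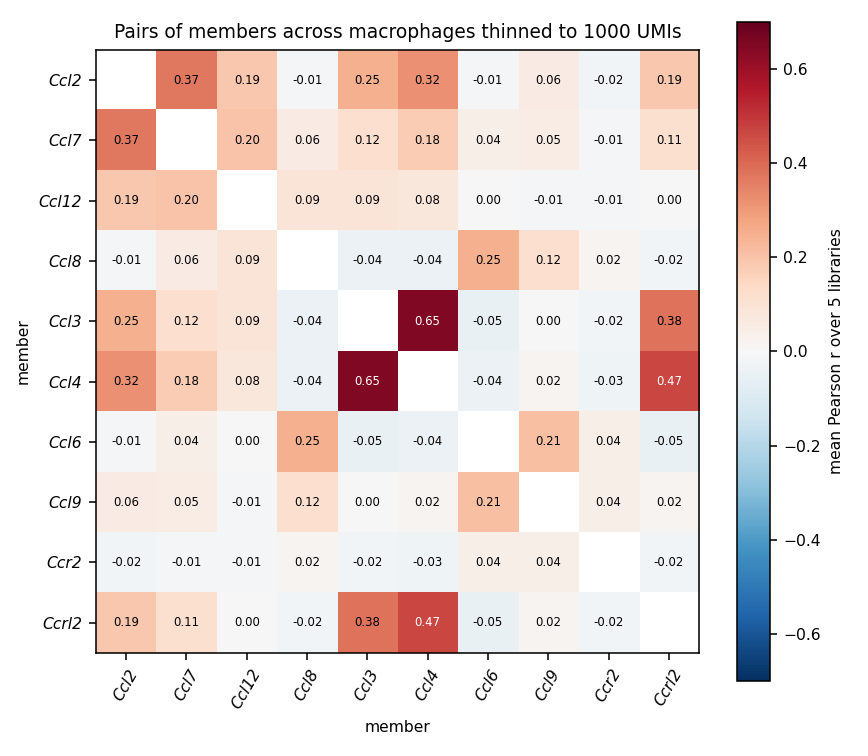
Mean Pearson's r over 5 libraries for each pair of members in macrophages thinned to 1000 UMIs, printed and coloured. The block of Ccl3, Ccl4 and Ccrl2 reaches 0.65, and most other cells lie near 0.

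Whether L-fuc altered the chemokine level of macrophages was read first at day 7. No member of the 10 was 2-fold apart between L-fuc and control day 7: 0 were higher, where 2.91% of all genes whose UMIs summed to 30 or more over both libraries were, and 0 lower, where 4.23% were. The ratios ran from 0.817 (95% interval 0.775 to 0.861) for Ccl7 to 1.59 (1.42 to 1.79) for Ccr2, with Ccl12 at 1.31 (1.25 to 1.37) and Ccl4 at 1.09 (1.07 to 1.10). The mast-cell and basophil gate was passed by 53 of 2071 L-fuc and 5 of 1772 control macrophages. They held 19.5% and 0.775% of the macrophage Ccl6 UMIs. Without them Ccl6 stood at 44.5 CPM in L-fuc and 56.2 in control, and Ccl9 at 14.5 and 14.6. Of the chemokine receptor list 4 of 14 measured genes were 2-fold higher (Ccr8, Ccr10, Cxcr6 and Xcr1) and 0 lower, and T and natural killer markers summed to 449 and 584 CPM in these macrophages against 244 and 123 in control; their part in the receptor values was not tested.

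At day 21, 3 of the 10 members were at least 2-fold higher in L-fuc macrophages, where 3.41% of all genes were, and 0 were lower, where 0.782% were. They were Ccl9 at 2.55 times (2.09 to 3.13), Ccr2 at 2.07 times (1.69 to 2.55) and Ccl6 at 2.05 times (1.88 to 2.23). The log2 ratios of Ccl6 and Ccr2, 1.04 and 1.05, were 0.98 and 0.91 with Scrublet doublets removed. With a C1q minimum of 20 UMIs they were 0.63 and 0.91, so only Ccl9 stayed past 2-fold under both settings. Split by the Mrc1, Folr2, Cd163 and Lyve1 gate, Ccl9 was short of 2-fold, at 1.54 times (1.14 to 2.09) outside and 1.40 times (1.05 to 1.89) inside. Ccr2 was short of it as well, at 1.54 times (1.19 to 1.99) outside and 1.82 times (1.20 to 2.87) inside. Ccl6 stood at 2.01 times (1.78 to 2.27) outside and 0.790 times (0.701 to 0.891) inside. That gate took a larger share of macrophages in L-fuc than in control day 21. Ccl4 stood at 0.638 times (0.626 to 0.650), Ccl3 at 0.756 (0.728 to 0.784), Ccrl2 at 0.764 (0.740 to 0.788) and Ccl2 at 0.783 (0.738 to 0.830), all below control, and Ccl8 at 1.19 (1.16 to 1.22). In barcodes thinned to 1000 UMIs the log2 ratio was 2.93 for Ccl6, 2.10 for Ccr2, 1.68 for Ccl9 and 1.52 for Ccl8. This put Ccl8 past 2-fold as well. Within gates Ccl8 varied in direction. It stood at 0.366 times inside the Mrc1, Folr2, Cd163 and Lyve1 gate and 1.49 outside, and at 0.132 inside the Ly6c2 and Plac8 gate and 1.60 outside. Inside the Cx3cr1, Arg1, inflammatory and cell-cycle gates Ccl8 stood at 1.06 to 3.30 times. Of the monocyte list, Ly6c2, Plac8 and Fn1 were 2-fold higher in L-fuc beside Ccr2, with Ly6c2 at 244 CPM against 39.9. Outside the Ly6c2 and Plac8 gate Ccr2 was 2.53 times higher in L-fuc (2.01 to 3.20), and inside it, where 31 L-fuc and 15 control macrophages lay, it stood at 0.329 times (0.207 to 0.533).

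The Ccl6 difference at day 21 was larger in shallow barcodes, a split chosen after the values were seen. In L-fuc day 21, the 162 macrophages under 3000 UMIs held Ccl6 at 1463 CPM and Ccl8 at 4599, against 179 and 1460 in the 249 deeper ones, and the same barcodes were high in F13a1 (189 against 10.8), Pf4 (218 against 28.7) and Folr2 (103 against 16.1). In that library 52 of 408 thinned macrophages had at least 3 Ccl6 UMIs, with a median depth of 1482 UMIs, and held 82.5% of the thinned Ccl6 and 52.3% of the thinned Ccl8. In the other libraries 14, 3, 2 and 2 macrophages were of this kind. Among macrophages of at least 3000 UMIs the L-fuc to control ratio was 1.52 (1.39 to 1.67) for Ccl6, 1.81 (1.47 to 2.24) for Ccr2 and 2.43 (1.98 to 3.00) for Ccl9, so that 1 member remained past 2-fold.

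**Figure D5:**
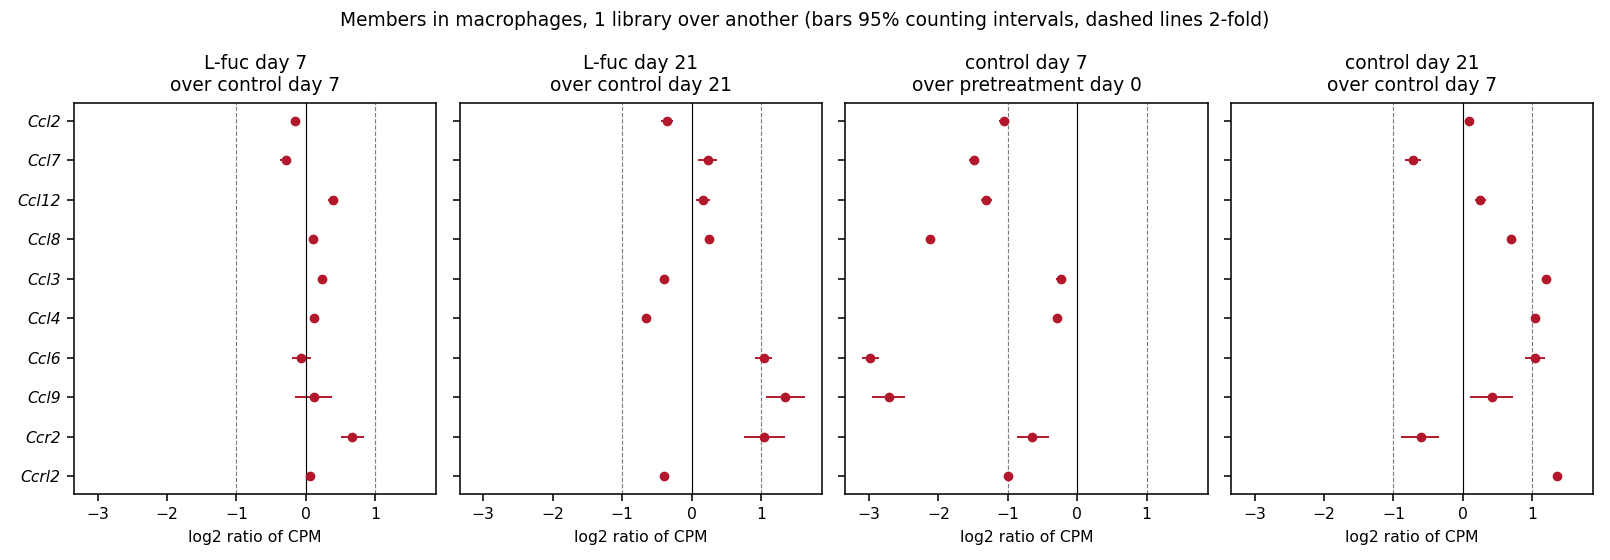
Log2 ratio of each member's macrophage level in 4 comparisons of libraries, with 95% counting intervals and lines at 2-fold. At day 7 L-fuc and control lie within 2-fold for all 10 members, at day 21 Ccl6, Ccl9 and Ccr2 lie past it, and control day 7 lies below pretreatment for all 10.

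From day 0 to control day 7, 7 of the 10 members were at least 2-fold lower, where 2.64% of all genes were, and 0 were higher, where 24.0% were. Ccl6 fell by 2.98 on the log2 scale, Ccl9 by 2.71, Ccl8 by 2.12, Ccl7 by 1.48, Ccl12 by 1.31, Ccl2 by 1.06 and Ccrl2, at the edge, by 1.00. Ccl3, Ccl4 and Ccr2 stood at -0.24, -0.29 and -0.65, and the median over members was -1.19 against 0.36 over all genes. The 6 measured resident-type genes were all 2-fold lower (Mrc1, Folr2, F13a1, Selenop, Cbr2 and Gas6), and the share of macrophages in the Mrc1, Folr2, Cd163 and Lyve1 gate was 12.9% at day 0 and 3.39% in control day 7. Outside that gate the log2 ratio was -0.71 for Ccl8, -1.32 for Ccl6 and -1.54 for Ccl9. Without barcodes holding Sox10 or Cd3 transcripts it was -2.01 for Ccl8, -2.86 for Ccl6, -0.81 for Ccl2 and -0.68 for Ccrl2, the latter 2 no longer past 2-fold, and 0.12 for Ccl4.

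From control day 7 to control day 21, 4 members were at least 2-fold higher, where 3.98% of all genes were, and 0 lower, where 16.8% were. Ccrl2 stood at a log2 ratio of 1.35 (1.31 to 1.40), Ccl3 at 1.20 (1.15 to 1.24), Ccl4 at 1.04 (1.02 to 1.06) and Ccl6 at 1.04 (0.90 to 1.18), against a median of -0.21 over all genes. In the same comparison 4 of 17 NF-kB response genes (Nfkbiz, Il1b, Bcl2a1b and Cd83) and 5 of 12 dissociation genes (Fos, Junb, Atf3, Dusp1 and Zfp36) were 2-fold higher and 0 of either lower. Without barcodes holding Sox10 or Cd3 transcripts the ratios were 0.96 for Ccrl2, 0.96 for Ccl3, 0.63 for Ccl4 and 0.70 for Ccl6, so that 0 members stayed past 2-fold higher and Ccl7, at -1.11, passed it lower. The 3 comparisons that use control day 7 share that library.

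In the other Ptprc-positive barcodes L-fuc and control lay further apart. At day 7, 5 members were at least 2-fold higher in L-fuc, where 9.40% of all genes were, and 1 was lower, where 7.87% were. Ccl6 was 14.6 times higher (12.7 to 16.9), Ccl9 9.13 times (7.49 to 11.2), Ccl3 6.18 times (5.84 to 6.53), Ccl4 3.41 times (3.31 to 3.52) and Ccrl2 2.18 times (2.03 to 2.33), and Ccl8 was at 0.364 times (0.323 to 0.410). Barcodes of the mast-cell and basophil gate, alone or with another gate, numbered 94 of 2646 in L-fuc and 13 of 3725 in control, and held 84.6% and 21.0% of the Ccl6 UMIs of this class. Without them Ccl6 stood at 2.96 times, Ccl9 at 2.38, Ccl3 at 3.50, Ccl4 at 2.29 and Ccrl2 at 1.87. The make-up of this class also differed. Sox10 was found in 18.8% of its barcodes in L-fuc and 44.6% in control. T and natural killer markers summed to 1071 and 2063 CPM in L-fuc against 332 and 276 in control. In tumor cells Ccl8 stood at 7.05 CPM in L-fuc day 7 and 20.9 in control day 7. The part of make-up and free RNA in these ratios was not tested.

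At day 21, 4 members were at least 2-fold higher in these barcodes with L-fuc, where 2.65% of all genes were, and 5 were lower, where 10.5% were. Ccl8 was 10.4 times higher (5.93 to 19.9), Ccl7 4.82 times (3.35 to 7.14), Ccl12 4.13 times (1.83 to 10.9) and Ccl2 2.30 times (1.85 to 2.87), of which Ccl8 and Ccl12 had 13 and 7 UMIs in control. Ccl6 stood at 0.187 times (0.157 to 0.223), Ccl3 at 0.269 (0.242 to 0.299), Ccl9 at 0.299 (0.203 to 0.435), Ccrl2 at 0.307 (0.275 to 0.343) and Ccl4 at 0.357 (0.330 to 0.386). Only 204 and 202 barcodes entered this comparison, and 4 monocyte-gate barcodes held 93.0% of the Ccl7 and 72.9% of the Ccl2 UMIs of the L-fuc library's class. Without the mast-cell and basophil gate Ccl6 stood at 0.492 times, and Ccrl2 at 0.617 and Ccl9 at 0.847 were no longer past 2-fold.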

How the data were processed

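Expression was measured by 10x Genomics single-cell RNA-seq in 5 libraries of pooled tumors, 1 per condition. The authors aligned reads to mm10 and counted UMIs with Cell Ranger (3.0 in the study's methods, 7.1.0 in the matrix headers), and the deposited values are raw counts per gene and barcode. The deposited matrices were filtered here to barcodes with at least 500 genes and at most 10% mt- UMIs. UMIs were summed per library and class and given as CPM, with exact Poisson intervals for levels, exact conditional intervals for ratios and exact Clopper-Pearson intervals for shares (95%). A gene counted as apart at 2-fold where its UMIs summed to 30 or more over both libraries. Class sums were tested with edgeR 4.0.16 (quasi-likelihood, library block, Benjamini-Hochberg adjustment, threshold 0.05) and with DESeq2 1.42.0 as an alternative. On simulated sums of 12761 genes, the test of macrophages over other Ptprc-positive barcodes recovered 30.6% of genes changed 2-fold and 97.9% of those changed 4-fold. These shares do not carry over to the members. In the data Ccl2, Ccl7 and Ccl4 stood near 4-fold in this test, with log2 fold changes of 1.92, 1.96 and 1.89. With SEs of 0.71, 0.75 and 0.83 they were not called, so a member that was not called may still differ 4-fold.

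Coexpression and shares used barcodes thinned to 1000 UMIs, which left out those below that depth. Doublets were not removed in the main values, and Scrublet as run in scanpy 1.11.5, at the doublet rate given in the study's methods, 0.08% per 1000 cells, called 0.127 to 1.43% of the kept barcodes per library, which were left out as an alternative. In the day 7 libraries, where its automatic cut called none, the top scores at that rate were used. The members, lists and gates were chosen with earlier results of these data known. All members are named, with the 3 genes most like each, the 3 most abundant genes of a list and list genes past 2-fold. Promoter windows were RefSeq's, of which Ccrl2 has 3. The T cell receptor tables were not used here.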

Additional observations from a re-analysis of the deposited data

How the results depend on the processing

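With 1 library per condition, depth limits the scarce members: at 1000 UMIs per barcode Ccl9 and Ccr2 were found in under 10% of macrophages. Of 175 recomputed counts of members, 163 stayed within 1.5 times the count given and 12 did not, as follows. For members at least 2-fold higher in L-fuc over control macrophages at day 21, the count of 3 became 1 with a C1q minimum of 20 UMIs (Ccl9 remained) and 1 with Scrublet doublets removed (Ccl9). It also became 1 in macrophages outside the Mrc1, Folr2, Cd163 and Lyve1 gate (Ccl6) and 1 in those of at least 3000 UMIs (Ccl9), both chosen after seeing the data. For control day 21 over control day 7, the 4 members higher became 2 with the C1q minimum of 20, 2 after thinning to 1000 UMIs and 0 without barcodes holding Sox10 or Cd3, where 1 became lower. For macrophages over other Ptprc-positive barcodes, the 3 members called higher became 5 after thinning and 6 with DESeq2 (Ccl2, Ccl7 and Ccl4 added), and the 0 called lower became 1 after thinning and 1 without barcodes holding Sox10 or Cd3 (Ccr2, edgeR adjusted p = 0.0292). Leaving out each library gave 2 to 4 members called higher and 0 lower, and against tumor cells 10 higher in every case. The cause was not tested. Of single values, 164 of 400 macrophage levels left their counting interval, and of 520 log2 ratios between libraries 154 left theirs with the 2-fold call unchanged, 31 fell short of 2-fold and 3 passed it. The 7 members lower in control day 7 than at day 0 became 5 to 8. None of these settings turned the direction of a ratio past 2-fold, but inside gates some turned: L-fuc over control at day 21 was 0.299 for Ccl6, 0.561 for Ccl9 and 0.329 for Ccr2 with Ly6c2 and Plac8 and 0.790 for Ccl6 with Mrc1 and Folr2, Ccl12 was 1.51 in control day 7 over day 0 with Ly6c2 and Plac8, and Ccl4 was 0.897 with Arg1 and 0.966 with Ly6c2 and Plac8 in control day 21 over day 7. Normalizing the macrophage sums by TMM, which moved the day 7 over day 0 log2 ratios by about the shift of all genes, gave 8 members at least 2-fold lower in place of 7. Pairs of members with a mean r of at least 0.2 numbered 6 to 12 against 9. No paired analysis was possible because the libraries are single pools with no replicate numbers; the class test holds the library as a block.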

Other observations

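Among the other chemokines listed, Cxcl2, a neutrophil attractant, stood at 2060 CPM in macrophages at day 0 and 1210 to 1466 in the later libraries. It was the most abundant of them except in L-fuc day 7, where Ccl5 stood at 1407 against 1210 for Cxcl2. T and natural killer markers were highest in the macrophage barcodes of that library, at 449 and 584 CPM, and their part in Ccl5 was not tested. Ccl24, an eosinophil attractant, stood at 236 CPM at day 0 and at 3.93, 2.15, 2.73 and 3.71 in control and L-fuc day 7 and control and L-fuc day 21. Cxcl13, which guides B cells, was 2.42 times higher (2.32 to 2.52) in control day 21 than in control day 7 macrophages.

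At day 7 Cxcl9, an interferon-induced attractant of T cells, was 2.22 times higher (2.16 to 2.29) in L-fuc than in control macrophages, and Cxcl1 stood at 0.346 times (0.327 to 0.367). At day 21 the Cxcl9 ratio was 1.12 (1.07 to 1.17) and the Cxcl1 ratio 0.621 (0.581 to 0.663). Ccr1, a receptor for ligands described above, stood at 23.7 to 83.0 CPM in macrophages, beside 19.7 to 47.9 for Ccr2.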
